A study of Ambystoma mexicanum with 15 samples.

Results

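GAP43, STMN4, ELAVL2 and SCG3 are neuronal genes that act in growing axons, in RNA regulation and in regulated secretion, and their transcripts were followed in axolotl (Ambystoma mexicanum) spinal cord after injury. The genes were taken by symbol from the annotation of the array platform, which gave 1 probe set per gene and therefore 4 probe sets of the 20035 tested. Each symbol is also carried by 1 gene in the RefSeq annotation of the axolotl genome. The axolotl regrows its spinal cord after removal of a segment, and ependymoglia, the cells that line the central canal, take part in that regrowth.

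Total RNA was hybridized to 15 Affymetrix arrays in 5 groups of 3. The groups were uninjured cord, cord at 1, 3 and 7 days after a piece was surgically removed, and injured cord at 1 day from animals given ivermectin. This compound, a drug that opens ligand-gated chloride channels, was injected into the central canal directly before the injury. All animals were white axolotls labelled as 1 month old, and each array carried tissue pooled from 10 animals. The labels call only the uninjured tissue mature, though all groups have the same age. They do not say whether the animals of the 1 day group without ivermectin received the water vehicle. The site of the injury was collected at 1 day, and how much adjoining tissue came with it is not stated.

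Growth cones, the motile tips of extending axons, depend on membrane-bound phosphoproteins and on rapid turnover of microtubules. GAP43 is a phosphoprotein of the growth cone membrane and a classical marker of axon growth and regeneration. STMN4 belongs to the stathmins, which bind tubulin and promote microtubule disassembly. ELAVL2 is a neuronal member of the Hu family, which binds AU-rich stretches in messenger RNA and regulates splicing, stability and translation. SCG3, secretogranin III, is a granin that helps to sort cargo into dense-core granules, the organelles from which neurons and endocrine cells release peptides. These roles are known from mammals.

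Values are log2 expression after RMA normalization, differences are on the same log2 scale with their SE from a limma fit over all 15 arrays, and an adjusted p under 0.05 counts as changed. The whole-series pattern bears on every value below. Uninjured and ivermectin arrays correlated with each other at 0.996 to 0.997 across probe sets, whereas ivermectin and 1 day arrays, taken at the same time after injury, correlated at 0.967 to 0.968. Control RNA added before labelling divided the arrays in the same way, with 7.39 to 7.56 in the uninjured and ivermectin arrays and 7.81 to 8.41 in the arrays of injured cord without the drug. The labels name no batch, so a difference in handling along this line and the effects of injury or drug cannot be told apart. In uninjured cord 0 of 15 measured ependymoglial genes lay at or below the lower quartile on all 3 arrays. The same held for 0 of 5 measured oligodendrocyte and Schwann cell genes, though most probe sets exceed that quartile by definition. It also held for 0 of 21 skeletal muscle and 0 of 5 red cell genes, so this does not single out cord tissue. Of 22 measured genes of neurofilaments and neuron identity, 5 lay at or below that quartile on all 3 arrays, among them the glycine transporter SLC6A5.

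All 4 genes rose after injury without the drug, at 1, 3 and 7 days. They were chosen with earlier results of these data known. Their calls and their place among all probe sets are therefore descriptions and not independent of that choice. The rise at 7 days was 3.31-fold for GAP43, 4.43-fold for STMN4, 5.68-fold for ELAVL2 and 3.62-fold for SCG3 (n = 3 arrays per group). All 4 were lower with ivermectin than without it at 1 day, and 0 of the 4 differed from uninjured cord with the drug by limma's adjusted p, although GAP43 and ELAVL2 had an unadjusted p under 0.05 (0.00397 and 0.0121). Of the 20035 probe sets, 25.1% were called higher at 1 day, 29.8% at 3 days and 28.8% at 7 days against uninjured cord, and 25.4% were called lower with ivermectin than without it. In the opposite directions the shares were 28.8%, 30.2% and 28.9% for lower values after injury and 29.6% for higher values with the drug. Against the uninjured arrays only 6.95% were called in either direction with the drug. The 3 injury comparisons share the uninjured arrays and are not independent of one another. Where arrays of different groups are said below not to overlap, this only describes groups of 3 arrays. The share of all probe sets that separate in this way is not given. In whole tissue, more or fewer cells of a type and more or less RNA per cell cannot be told apart.

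**Figure D1:**
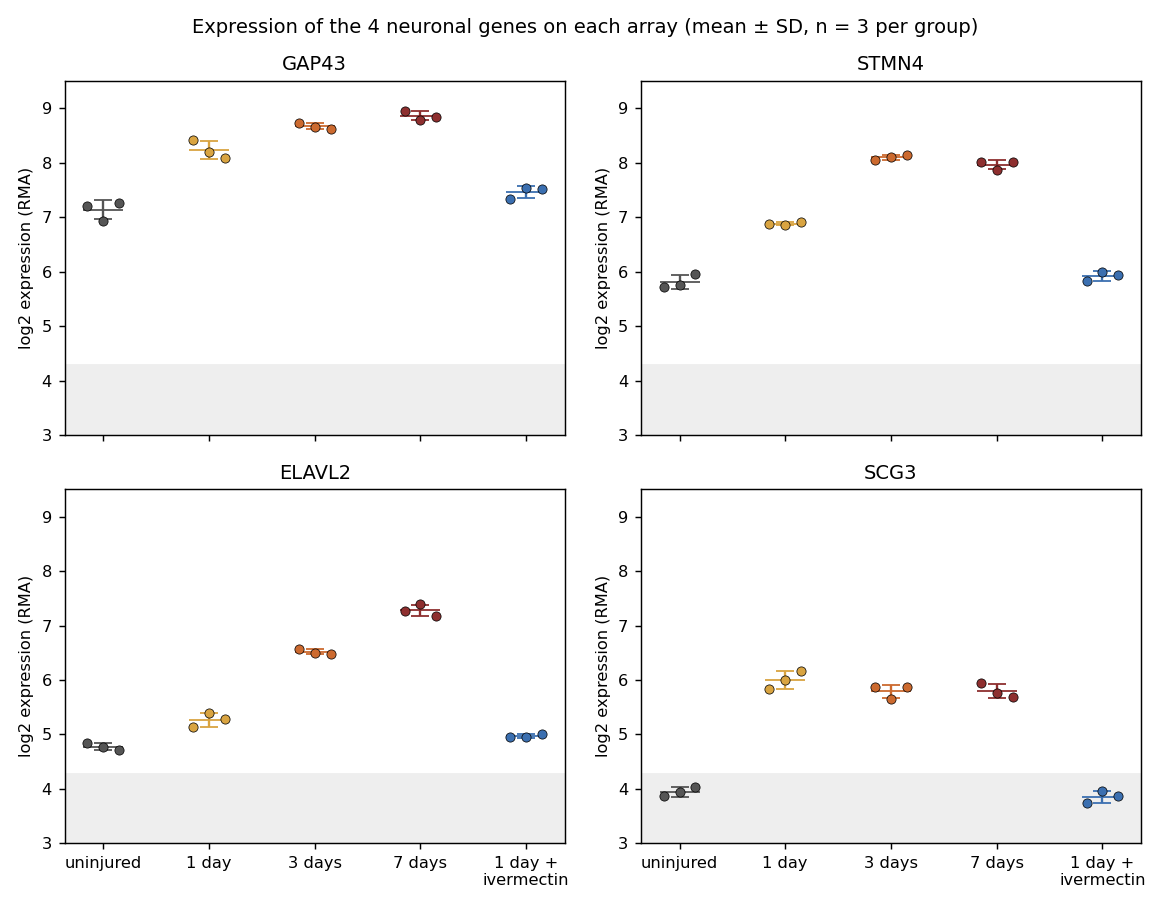
Log2 expression of GAP43, STMN4, ELAVL2 and SCG3 on each of the 15 arrays (points), with the group mean and SD (n = 3), in uninjured cord, at 1, 3 and 7 days after injury, and at 1 day with ivermectin. The grey band lies below the highest lower quartile of any array (4.28), and the SCG3 values of the uninjured and ivermectin arrays fall inside it.

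GAP43, the growth cone protein, was measured by probe set axo07852-f_at. It read 7.20, 6.94 and 7.27 in the uninjured arrays and 8.41, 8.20 and 8.08 at 1 day. At 3 days it read 8.73, 8.66 and 8.62, and at 7 days 8.95, 8.79 and 8.84. Every array of injured cord without the drug lay above every uninjured array. The 3 day arrays lay above the 1 day arrays, and the 7 day arrays lay above the 3 day arrays by a margin smaller than the spread within the 7 day group.

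The mean of GAP43 rose from 7.13 ± 0.175 (SD, n = 3) in uninjured cord to 8.23 ± 0.168 at 1 day, a difference of 1.10 ± 0.09 (adjusted p = 1.15e-07). It was 1.54 ± 0.09 above uninjured cord at 3 days and 1.73 ± 0.09 at 7 days. The step from 1 to 3 days was 0.44 ± 0.09 (adjusted p = 0.0016). The step from 3 to 7 days was 0.19 ± 0.09 (adjusted p = 0.127; 95% interval -0.01 to 0.39) and was not called. The change at 1 day thus made up 63.6% of the change at 7 days on the log2 scale.

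STMN4, the stathmin, was measured by probe set axo19422-f_at and read 5.72, 5.75 and 5.96 in the uninjured arrays. It read 6.87, 6.86 and 6.91 at 1 day, the narrowest group of any of the 4 genes (SD 0.0279). At 3 days it read 8.05, 8.10 and 8.15, and at 7 days 8.01, 7.87 and 8.01. The 3 day arrays were the highest, just above the 7 day arrays, and the uninjured, 1 day and 3 day arrays did not overlap.

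STMN4 rose by 1.07 ± 0.07 at 1 day (adjusted p = 3.43e-09), by 2.29 ± 0.07 at 3 days and by 2.15 ± 0.07 at 7 days against uninjured cord. The further rise fell between 1 and 3 days, with a step of 1.22 ± 0.07 (adjusted p = 1.11e-09). This step exceeded the same difference in 99.1% of all probe sets. From 3 to 7 days the difference was -0.14 ± 0.07 (adjusted p = 0.113; 95% interval -0.28 to 0.00). Under cyclic loess normalization that difference was -0.21 and passed the threshold (adjusted p = 0.0223).

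ELAVL2, the neuronal Hu protein, was measured by probe set axo10070-f_at. The uninjured arrays read 4.84, 4.78 and 4.71, and the 1 day arrays 5.14, 5.39 and 5.28. The 3 day arrays read 6.58, 6.50 and 6.48 and the 7 day arrays 7.27, 7.39 and 7.18. The 4 groups formed separate steps with no overlap, each later group above the one before.

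At 1 day ELAVL2 differed from uninjured cord by 0.50 ± 0.07 (adjusted p = 1.74e-05), at 3 days by 1.75 ± 0.07 and at 7 days by 2.51 ± 0.07. Its rise at 1 day was 19.9% of that at 7 days. Both later steps passed the test, with 1.25 ± 0.07 from 1 to 3 days (adjusted p = 1.1e-09) and 0.76 ± 0.07 from 3 to 7 days (adjusted p = 4.98e-07). The difference between 7 and 1 days, 2.01 ± 0.07, exceeded that of 99.9% of all probe sets.

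SCG3, the granin, was measured by probe set axo13277-f_at and read 3.87, 3.94 and 4.04 in the uninjured arrays. It read 5.84, 6.01 and 6.17 at 1 day, 5.87, 5.66 and 5.86 at 3 days, and 5.95, 5.76 and 5.69 at 7 days. The arrays of injured cord without the drug overlapped across the 3 times, and all of them lay far above the uninjured arrays. In the uninjured and ivermectin groups, 3 of 3 arrays lay at or below the lower quartile of their array (4.21 to 4.28). SCG3 was therefore not shown to be above background there, and its fold changes are not exact.

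SCG3 was 2.06 ± 0.09 higher at 1 day than in uninjured cord (adjusted p = 9.73e-11), 1.85 ± 0.09 higher at 3 days and 1.86 ± 0.09 higher at 7 days. Its change at 1 day was 111% of its change at 7 days. No later step was called. The difference from 1 to 3 days was -0.21 ± 0.09 (adjusted p = 0.0911; 95% interval -0.41 to -0.01) and that from 3 to 7 days was 0.00 ± 0.09 (adjusted p = 0.98; 95% interval -0.20 to 0.20). Without replicate 1 of the 1 day group, the differences of 3 and 7 days from 1 day were -0.29 and -0.29 and passed the threshold (adjusted p = 0.0266 and 0.0282). Without replicate 1 of the 7 day group, 7 days differed from 1 day by -0.28 (adjusted p = 0.0396).

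Between 1 and 3 days, 3 of the 4 genes were called higher, against 21.9% of all probe sets. Between 3 and 7 days ELAVL2 alone of the 4 was called higher, against 22.2% of all probe sets. Between 1 and 7 days GAP43 (0.63 ± 0.09), STMN4 (1.08 ± 0.07) and ELAVL2 were called higher, against 24.1%. Whether the courses of the 4 genes differ from one another was not tested. The courses stand side by side as their own values.

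**Figure D2:**
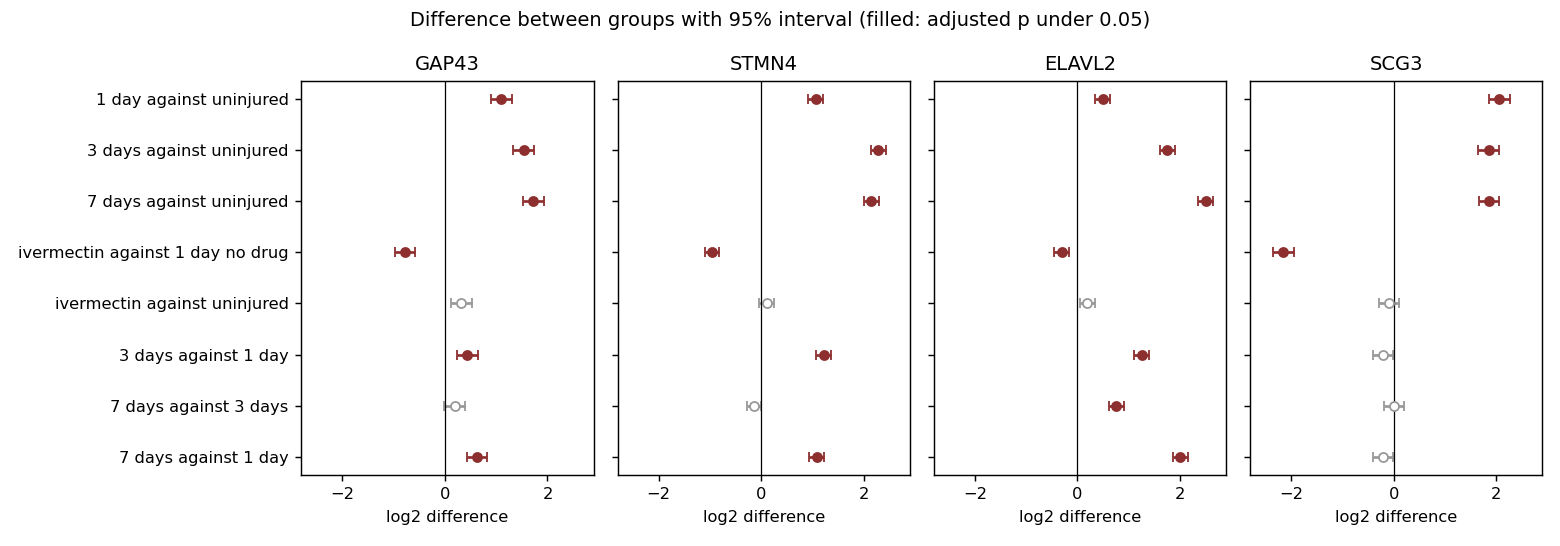
Log2 difference between groups for each of the 4 genes in 8 comparisons, with the 95% interval from the limma fit. Filled points passed an adjusted p of 0.05. All 4 genes have filled points to the right of 0 in the 3 injury comparisons and to the left of 0 for ivermectin against 1 day without it, and open points for ivermectin against uninjured cord.

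Injured cord with ivermectin was compared with injured cord without it at 1 day, where drug and handling cannot be told apart. With ivermectin GAP43 read 7.33, 7.53 and 7.51, which lay below all 1 day arrays and above all uninjured arrays. It was 0.77 lower than without the drug (-0.77 ± 0.09; adjusted p = 4.63e-06), a 1.71-fold difference. Against uninjured cord it differed by 0.32 ± 0.09 (95% interval 0.12 to 0.53, adjusted p = 0.0547), which is 29.5% of the change at 1 day without the drug. This call lay at the edge of the threshold. The adjusted p was 0.0418 without replicate 3 of the uninjured group, 0.0336 and 0.0463 without replicates 1 and 3 of the 1 day group, and 0.0448 without replicate 1 of the ivermectin group. Fits that left out any other array did not pass. Over the 23 alternatives limma's adjusted p ran from 0.0145 to 0.229, and the difference from 0.22 to 0.39.

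STMN4 read 5.83, 5.94 and 5.997 with ivermectin, which overlapped the uninjured arrays and lay below the 1 day arrays. It was 1.94-fold lower than without the drug (-0.96 ± 0.07; adjusted p = 9.94e-09) and differed from uninjured cord by 0.11 ± 0.07 (95% interval -0.03 to 0.25; adjusted p = 0.428). That difference from uninjured cord was 10.2% of the change at 1 day without the drug and was not called.

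ELAVL2 read 4.95, 4.95 and 5.01 with ivermectin, between the uninjured and the 1 day arrays and overlapping neither. It was 1.23-fold lower than at 1 day without the drug (-0.30 ± 0.07; adjusted p = 0.00152). Against uninjured cord the difference was 0.20 ± 0.07 (95% interval 0.05 to 0.34, adjusted p = 0.114), which is 39.4% of the small change at 1 day. By limma it was not called, although the arrays did not overlap.

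SCG3 read 3.74, 3.97 and 3.86 with ivermectin and overlapped the uninjured arrays. It differed from the 1 day arrays by -2.15 ± 0.09 (adjusted p = 5.01e-11), a 4.44-fold lower value, and 0.7% of all probe sets had a more negative difference. Against uninjured cord the difference was -0.09 ± 0.09 (95% interval -0.29 to 0.11; adjusted p = 0.696), at levels that leave little room for a fall. Ordered by level, the uninjured and ivermectin groups were neighbours for each of the 4 genes and were not separated by the test. The next group was 1 day for GAP43, STMN4 and ELAVL2, and 3 days for SCG3, and each of these lay above the ivermectin group. The adjusted p lay between 9.94e-09 and 0.00152 for the first 3 genes against 1 day, and was 1.05e-10 for SCG3 against 3 days. SCG3 at 3 days also lay above its nearer neighbour, the uninjured group (adjusted p = 1.77e-10).

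The relatives of the 4 genes in their families went in both directions, with more rises than falls after injury. Of the 11 relatives with a named probe set, 5 rose and 3 fell at 1 day, 6 rose and 3 fell at 3 days, and 7 rose and 1 fell at 7 days against uninjured cord. With ivermectin 5 were lower and 3 higher than at 1 day without it. The 3 of 11 that fell at 1 and 3 days and that were higher with the drug are near the shares over all probe sets (28.8%, 30.2% and 29.6%). Over all probe sets 25.1%, 29.8% and 28.8% were called higher at 1, 3 and 7 days. At 7 days 28.9% were called lower, and with ivermectin against no drug 25.4%. Against uninjured cord 4 of the 11 were higher with ivermectin, STMN1 (0.17 ± 0.04), STMN2 (0.22 ± 0.04), ELAVL4 (0.28 ± 0.07) and CHGA (0.34 ± 0.08), where 6.95% of all probe sets were called in either direction. The second CHGA probe set was not called in that comparison (-0.11 ± 0.16, adjusted p = 0.793). A second CHGB probe set was called higher (0.27 ± 0.05, adjusted p = 0.00625). ELAVL4 averaged 4.28 in uninjured cord, close to the lower quartile, so its difference is not exact. The neuronal stathmins STMN2 (0.78 ± 0.04 at 1 day, 1.36 ± 0.04 at 3 days and 1.20 ± 0.04 at 7 days) and STMN3 (0.96 ± 0.06, 0.97 ± 0.06 and 1.06 ± 0.06) rose with STMN4, so that 3 of the 4 stathmins rose at 1 and 3 days. STMN1, the stathmin of dividing and immature cells, fell by 0.26 at 1 day and by 0.20 at 3 days, and was 0.19 ± 0.04 higher at 7 days. A second STMN3 probe set, axo15327-f_at, gave a larger rise at 1 day, 2.12 ± 0.09.

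In the Hu family, ELAVL1, the form expressed in most cell types, changed by -0.999 ± 0.091 at 1 day, -1.24 ± 0.09 at 3 days and -0.89 ± 0.09 at 7 days on its brightest probe set. Its other probe sets differed by 0.03 ± 0.10 and -0.04 ± 0.10 at 1 day and were not called (adjusted p = 0.817 and 0.753), so the fall of ELAVL1 rests on 1 probe set. ELAVL4, another neuronal member, differed by -0.04 ± 0.07 at 1 day (adjusted p = 0.684), by -0.22 ± 0.07 at 3 days (adjusted p = 0.0157) and by -0.14 ± 0.07 at 7 days (adjusted p = 0.101). It lay at or below the lower quartile in the 3 day arrays, so its differences are not exact. ELAVL3 had no named probe set.

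Among the granins, CHGA, the main soluble protein of chromaffin granules, rose by 0.69 ± 0.08, 1.25 ± 0.08 and 1.05 ± 0.08 at the 3 times, and CHGB by 0.60 ± 0.10, 0.87 ± 0.10 and 0.36 ± 0.10. Second probe sets of both rose too at 1 day, by 0.95 ± 0.16 for CHGA and 1.14 ± 0.05 for CHGB, but that of CHGA was not called at 7 days (0.34 ± 0.16; adjusted p = 0.0839). That of CHGB rose more than the first, by 1.85 ± 0.05 at 3 days and 1.21 ± 0.05 at 7 days. SCG2 fell by 0.25 at 1 day, was 0.35 ± 0.06 higher at 3 days and was not called at 7 days (0.02 ± 0.06; adjusted p = 0.79). SCG5, a chaperone of the prohormone convertase PCSK2, differed by 0.05 ± 0.09 at 1 day (adjusted p = 0.653) and lay at or below the lower quartile of the uninjured arrays. BASP1, which resembles GAP43 in its binding to the growth cone membrane, rose by 0.53 ± 0.05, 0.56 ± 0.05 and 0.89 ± 0.05, and the related MARCKS was 0.29 ± 0.07 higher at 7 days (adjusted p = 0.0027). A second MARCKS probe set was called at 3 days (0.24 ± 0.10; adjusted p = 0.0422) but not at 7 days (0.19 ± 0.10; adjusted p = 0.104).

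Wider lists of neuronal genes place the 4 genes among others of their pathways. Their counts are to be read beside the shares over all probe sets, 25.1%, 29.8% and 28.8% higher at 1, 3 and 7 days. The lower shares were 28.8%, 30.2% and 28.9%, and with ivermectin against no drug 25.4% were lower and 29.6% higher. Of 24 further growth cone and axon growth genes the median difference was 0.27 at 1 day, 0.42 at 3 days and 0.37 at 7 days, beside medians of 0.00, 0.02 and 0.01 over all probe sets. With GAP43 counted, 18 of 25 rose and 1 fell at 1 day, 17 rose and 1 fell at 3 days, and 15 rose and 3 fell at 7 days. The axon guidance receptor ROBO1 rose by 1.31 ± 0.10 at 1 day, CRMP1, which relays semaphorin signals, by 1.22 ± 0.08, and MAPT, the microtubule-binding protein tau, by 1.02 ± 0.09. At 7 days the adhesion molecule NRCAM was 1.79 ± 0.09 higher, and MAPT differed by -0.07 ± 0.09. With ivermectin 15 of 25 were lower and 1 higher than without it, with ROBO1 at -1.28 ± 0.10, while 2 of 25 were higher than in uninjured cord (CRMP1 by 0.49 ± 0.08 and RTN1 by 0.31 ± 0.05). Of all probe sets 6.95% were called in either direction with the drug against uninjured cord.

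Dense-core granule genes rose more often than they fell at each time. With SCG3 counted, 8 of 17 rose and 2 fell at 1 day, 9 rose and 2 fell at 3 days, and 7 rose and 2 fell at 7 days, with medians of 0.06, 0.22 and 0.04 over the 16 others. Over all probe sets 25.1%, 29.8% and 28.8% were called higher at these times, and 28.8%, 30.2% and 28.9% lower. With ivermectin against no drug, 25.4% of all probe sets were lower and 29.6% higher. CPE, which trims peptides within the granule, rose by 0.94 ± 0.10 at 1 day and the convertase PCSK2 by 0.71 ± 0.10. RAB27B, a GTPase of granule docking, was 0.83 lower at 7 days (-0.83 ± 0.09). With ivermectin 8 of 17 were lower and 2 higher than without it, among them CPE (-0.83 ± 0.10) and the neuropeptide precursor VGF (-0.83 ± 0.07). VGF was also lower than in uninjured cord (-0.41 ± 0.07; adjusted p = 0.00154).

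Among ELAVL and other neuronal RNA-binding proteins, ELAVL2 included, 3 of 10 rose and 2 fell at 1 day, 6 rose and 3 fell at 3 days, and 5 rose and 2 fell at 7 days. The 2 that fell at 1 day and at 7 days were RBM24 and ELAVL1, the form expressed in most cell types. The fall of ELAVL1 rests on 1 probe set. FXR2, a relative of the fragile X protein, rose by 0.61 ± 0.05, 1.14 ± 0.05 and 1.04 ± 0.05, and RBM24, known as a splicing regulator of muscle, changed by -0.50 ± 0.06, -0.59 ± 0.06 and -0.82 ± 0.06. With ivermectin 3 of 10 were higher and 3 lower than without it. The counts at 1 day and with the drug are near the shares over all probe sets (25.1% higher and 28.8% lower at 1 day, 29.6% higher and 25.4% lower with the drug).

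Synaptic vesicle release genes rose in 9 of 26 cases at 1 day, 13 at 3 days and 10 at 7 days, and 1 of them fell at 7 days. These counts, and those of the neuron identity list below, stand beside 25.1%, 29.8% and 28.8% of all probe sets called higher. SYT4, a synaptotagmin found on dense-core granules, led with 1.32 ± 0.12 at 1 day and 1.97 ± 0.12 at 3 days, and AMPH, which acts in vesicle recycling, rose by 0.60 ± 0.08 at 1 day. In the uninjured arrays 17 of the 26 lay at or below the lower quartile, so this list gives limited information. AMPH was among them, so the size of its rise is not exact. Neurofilament and neuron identity genes rose in 11 of 22 cases at 1 day, 14 at 3 days and 9 at 7 days, with 1 fall each time, that of INSM1, a transcription factor of neuroendocrine and newborn neuronal cells (-0.94 ± 0.10 at 1 day). INSM1 lay at or below the lower quartile at 1, 3 and 7 days, so the size of its fall is not exact. UCHL1, a ubiquitin hydrolase abundant in neurons, rose by 0.82 ± 0.05, 1.31 ± 0.05 and 1.49 ± 0.05, and the synuclein SNCB by 1.09 ± 0.07, 0.99 ± 0.07 and 0.97 ± 0.07. With ivermectin 9 of these 22 were lower and 1 higher than without it. Against uninjured cord 6 of 22 were higher with the drug, led by the neurofilament NEFM (0.48 ± 0.05). Of all probe sets 6.95% were called in either direction there.

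**Figure D3:**
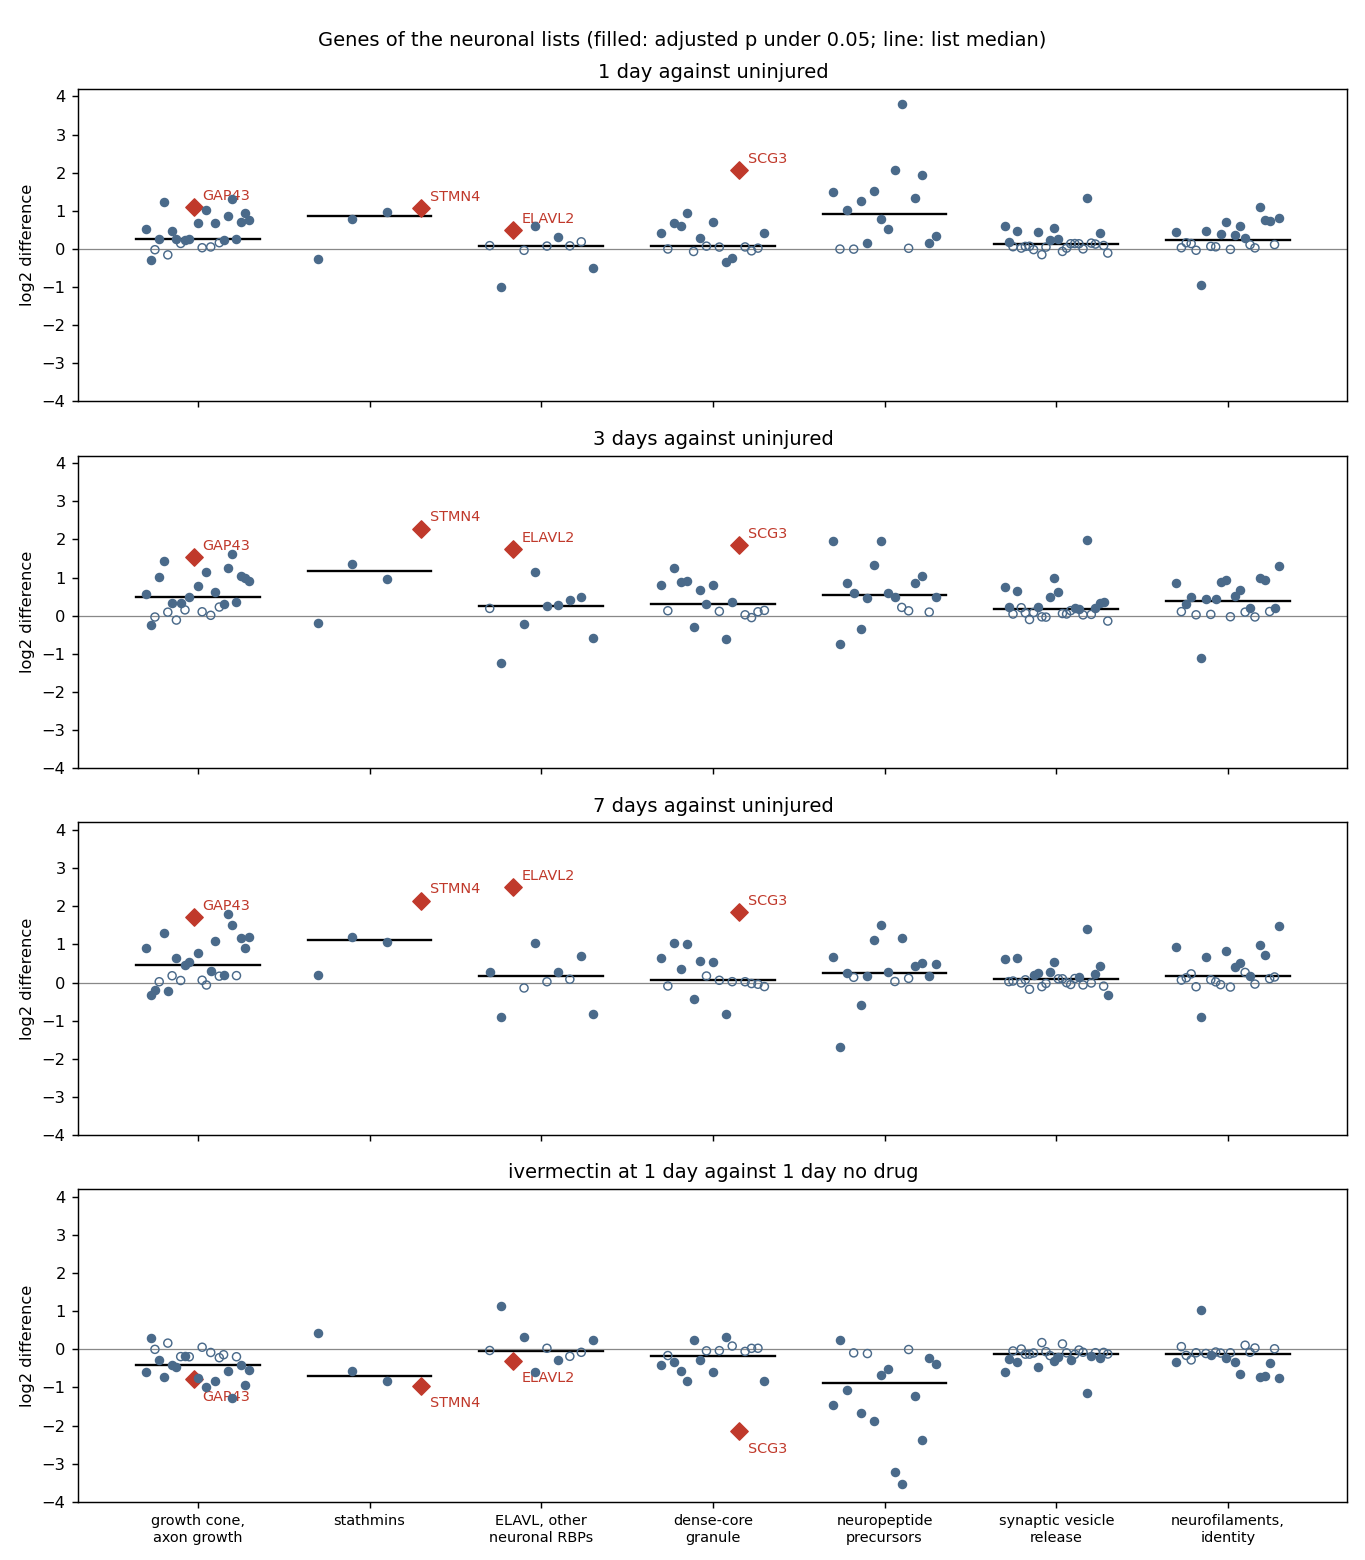
Log2 difference of each measured gene in 7 lists of neuronal genes, in 4 comparisons. Points are genes (filled where the adjusted p was under 0.05), diamonds are GAP43, STMN4, ELAVL2 and SCG3, and black lines are list medians. The 4 genes lie above their list medians after injury and below them for ivermectin against no drug. They were chosen with earlier results of these data known, so this position is not independent of that choice.

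Markers of other cell types moved in the same comparisons, and their part in the changes of the 4 genes was not tested. For their counts, the shares of all probe sets called at 1, 3 and 7 days were 25.1%, 29.8% and 28.8% higher. The shares called lower were 28.8%, 30.2% and 28.9%. Of 21 measured skeletal muscle genes 21 rose at 1 day and 20 at 3 and 7 days, 1 fell at 3 days, and 20 were lower with ivermectin than without it. Summed over the list, on a log2 scale, muscle markers spanned 16.2 to 16.3 in the uninjured and the ivermectin arrays, 16.8 at 1 day, 17.0 at 3 days and 16.9 at 7 days. Of 15 ependymoglial markers 9 rose and 2 fell at 1 day, 6 rose and 4 fell at 3 days (median 0.06), and 10 rose and 2 fell at 7 days. Their sum lay at 13.6 to 13.7 in both the uninjured and the ivermectin arrays against 14.2 at 1 day. Red cell markers rose in 5 of 5 cases at 1 day, with the sum at 9.14 to 9.18 in uninjured and 10.7 in 1 day arrays, and 2 rose and 2 fell at 7 days. Their sum was 8.94 to 9.07 at 7 days and 8.88 to 8.90 with ivermectin. Of 5 oligodendrocyte and Schwann cell markers 4 rose and 1 fell at 1 day (sum 11.6 in uninjured and ivermectin arrays against 12.2 to 12.3) and 4 fell at 7 days (11.4 to 11.5). Of 15 macrophage and leukocyte markers 7 fell and 2 rose at 1 day, and 8 rose and 2 fell at 7 days, with sums of 13.3 in uninjured and ivermectin arrays, 12.88 to 12.97 in 1 day and 13.8 in 7 day arrays. Of 5 measured endocrine markers 2 rose at 1 day, and CGA and PRL lay at or below the lower quartile of the uninjured arrays. The endocrine sum was 6.649 to 6.775 in uninjured arrays, 7.224 to 7.267 at 1 day and 7.68 to 7.889 at 3 days. It was 7.575 to 7.829 at 7 days and 6.86 to 6.932 with ivermectin.

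**Figure D4:**
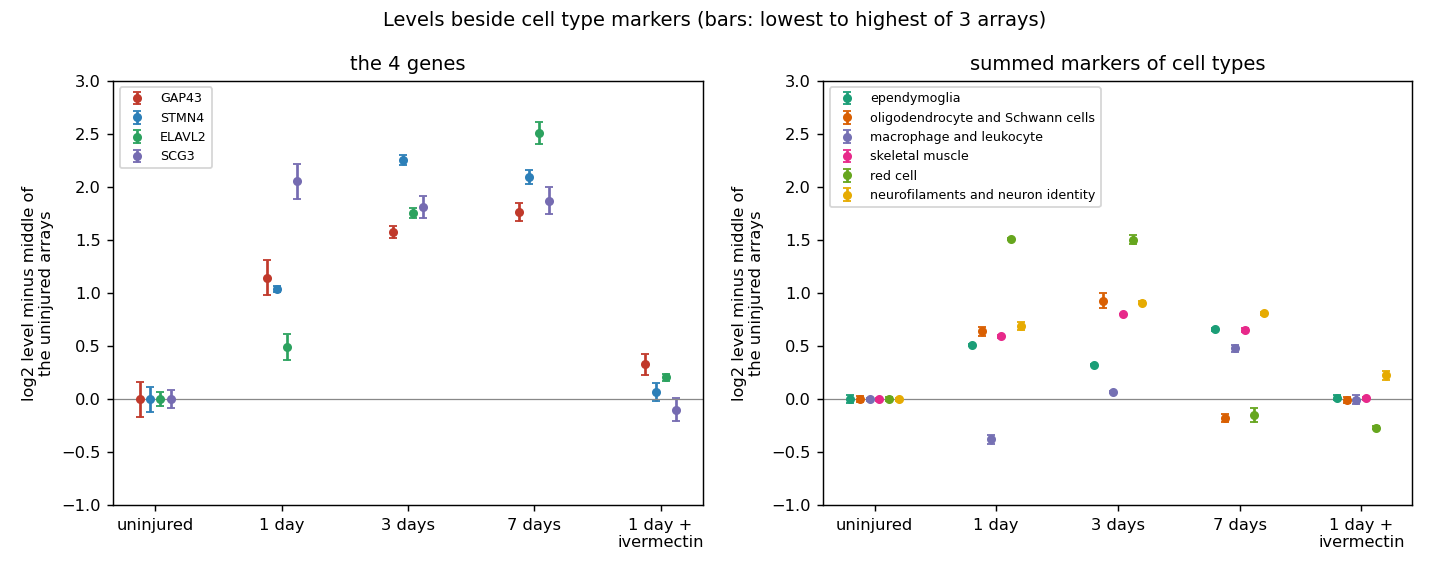
Left, log2 level of the 4 genes, and right, log2 of the summed marker genes of 6 cell types, in each group relative to the middle of the uninjured arrays. Points mark the middle and bars the lowest and highest of 3 arrays. The 4 genes and the muscle, ependymoglial and neuronal sums lie above 0 at 1, 3 and 7 days. With ivermectin GAP43, ELAVL2 and the neuronal sum (11.8 to 11.9) lie above the uninjured arrays without overlap and the red cell sum lies below them. By limma neither gene was called in that comparison (adjusted p = 0.0547 and 0.114), and the sums were not tested. How often all probe sets separate in this way is not given, so the lack of overlap is only a description.

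The genes most like each of the 4 over the 15 arrays were found by Pearson's r, given as a description. The arrays fall into 5 groups, so these values mainly follow the group means, and the genes share arrays and normalization. For GAP43 the highest values were those of UCHL1 on probe set axo09830-r_at (r = 0.993), VDAC3 (0.987), UBAC2 (0.985), COQ3 (0.985) and PFDN1 (0.984). For STMN4 they were those of MYOZ1 (0.996), SGCA (0.996), SERPINI1 (0.994), CASQ1 (0.993) and WNT2B (0.993). MYOZ1, SGCA and CASQ1 encode proteins of skeletal muscle, and SERPINI1 encodes neuroserpin, a protease inhibitor secreted by neurons. For ELAVL2 they were those of IGFBP5 (0.992), the Wnt antagonist SFRP2 (0.991), FABP3 (0.990), RBPMS2 (0.989) and SESN3 (0.988). For SCG3 they were those of CPT1A (0.994), PPDPF (0.992), SPON2 (0.991), the collagen chain COL1A1 (0.990) and the cadherin CDH13 (0.990).

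**Figure D5:**
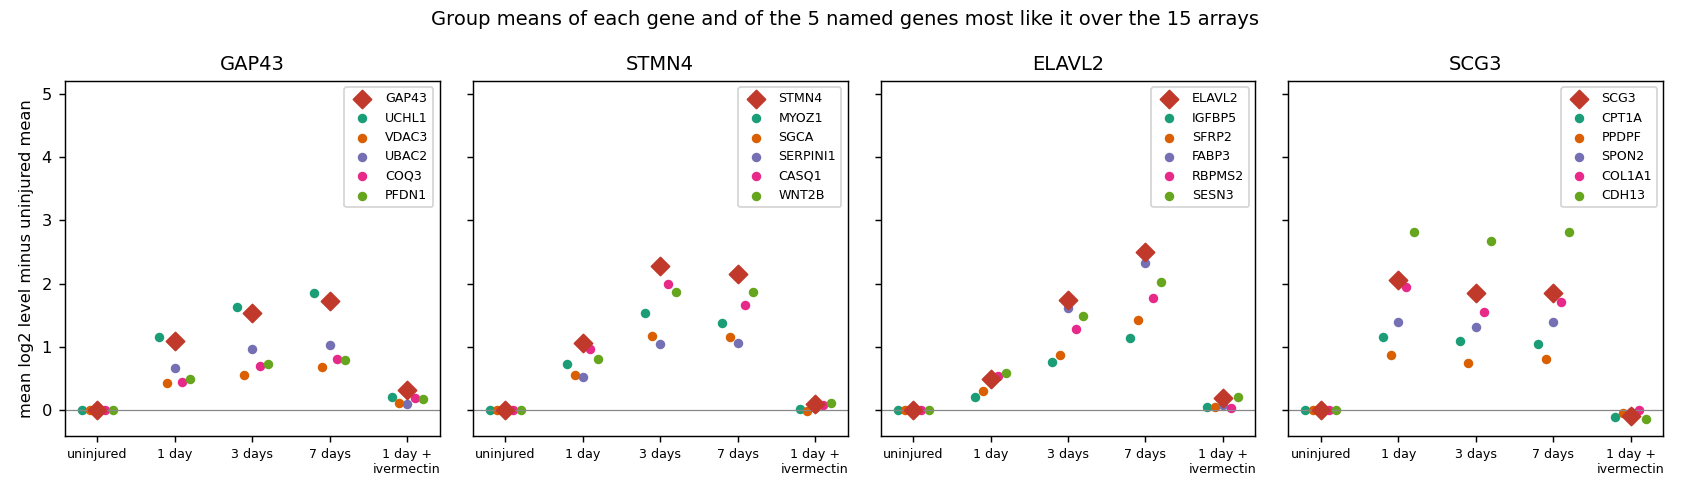
Mean log2 level of GAP43, STMN4, ELAVL2 and SCG3 (diamonds) and of the 5 named genes most like each over the 15 arrays (points), in each of the 5 groups relative to the uninjured mean. The ELAVL2 panel climbs from 1 to 7 days, the SCG3 panel is level after 1 day, and the ivermectin means are lower than the 1 day means in every panel.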

How the data were processed

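The authors processed the arrays with RMA in Affymetrix Expression Console, per the submitters' processing notes, and the deposited values were log2 expression for each probe set. Joint normalization of the 15 arrays and the software versions are not given in the sources used here. The table held 20080 probe sets, and 45 control probe sets were left out. The platform annotation gave 1 symbol for 10951 probe sets and none for 9084. Array medians lay between 5.8 and 5.89, and 0 arrays were duplicates. No detection call was used, and precision is limited by 3 arrays per group.

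The 15 arrays entered a single limma 3.58.1 fit (lmFit, eBayes; R 4.3.3) with a mean for each group, without a replicate block, with 10 residual and 4.26 prior degrees of freedom. Tests were 2-sided, and p-values were adjusted by the Benjamini-Hochberg method across all 20035 probe sets. Replicates were pools of animals, and the spread tested is that among pools. The fit was checked on simulated data.

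The 4 genes and the lists of textbook genes were chosen with earlier results of these data known. Named genes are the 4 genes, their relatives, and up to 4 genes with the largest called change in each list and comparison; a value of such a gene in another comparison, the genes named for a low level, and the second probe sets were chosen after values were seen. A gene with several probe sets is represented by the one with the highest mean. Likeness was ranked by Pearson's r over the arrays. Control RNA was averaged over 24 probe sets. Alternatives were a replicate block, the compared groups alone, an intensity trend, a robust prior, cyclic loess, median centring, a filter on the lowest 25%, array weights, leaving out each array, and the most variable probe set for the lists. Plots used matplotlib 3.10.9 under Python 3.11.15.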

Additional observations from a re-analysis of the deposited data

Results flagged for a closer look

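The injury response of the 4 genes differed between times or between drug and no drug in 11 cases by limma, each a test of the difference itself with the adjustment over all probe sets. With ivermectin at 1 day the level differed from that without the drug by -0.77 for GAP43, -0.96 for STMN4, -0.30 for ELAVL2 and -2.15 for SCG3 on the log2 scale. Between 3 days and 1 day the difference was 0.44 for GAP43, 1.22 for STMN4 and 1.25 for ELAVL2. Between 7 days and 1 day it was 0.63 for GAP43, 1.08 for STMN4 and 2.01 for ELAVL2. Between 7 and 3 days it was 0.76 for ELAVL2. Of all probe sets 25.4% were called lower with ivermectin than without it. Called higher were 21.9% from 1 to 3 days, 22.2% from 3 to 7 days and 24.1% from 1 to 7 days. Groups of 3 arrays are too small for a search for single outlying arrays.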

How the results depend on the processing

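All 4 genes were called in each of the 3 injury comparisons and in ivermectin against no drug under the 23 alternatives run, leaving out each array included. For ivermectin against uninjured cord the count of the 4 genes called went from 0 to 1, GAP43, with an intensity trend, with dim probe sets left out and with array weights, and lay between 0 and 1 when single arrays were left out. Over all probe sets that comparison gave 1393 calls, 861 with the 2 groups fitted alone and between 904 and 1397 without single arrays. For 7 days against 3 days the count went from 1 to 2 with cyclic loess (STMN4) and with the compared groups alone (GAP43, 0.19, adjusted p = 0.0433). SCG3 at 3 and 7 days against 1 day was also called with array weights (-0.24 and -0.27). The share of calls that were higher at 7 days against 1 day was 59.1%, and 47.9% with cyclic loess. Other such shares also moved across the even split with scaling, and the higher and lower shares over all probe sets rest on it. With median centring the share was 52.5% in place of 46.6% at 1 day and 59.3% in place of 49.6% at 3 days against uninjured cord, and 46.4% in place of 53.8% for ivermectin against no drug. Of 736 values for single genes 722 kept their side of the threshold, 14 passed it newly and 0 reversed. With the most variable probe set, 1 stathmin fell from 1 to 3 days and 2 rose from 3 to 7 days, against 0 and 1. The titles number the replicates 1 to 3 in every group. Over 30 same-numbered pairs the median residual correlation was -0.0062 (-0.225 to 0.231), so the numbers were not taken to pair the arrays. With a replicate block the calls at 1 day against uninjured cord were 10630 in place of 10786, and the block changed no call of the 4 genes.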

Other observations

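Precursors of neuropeptides, the cargo of dense-core granules, were read as a separate list, whose difference from the granule genes was not tested. Of 16 measured precursors 13 rose at 1 day (median log2 difference 0.90), 11 rose and 2 fell at 3 days (0.54), and 11 rose and 2 fell at 7 days (0.26). Among all probe sets 25.1%, 29.8% and 28.8% were called higher at these times. PMCH, the precursor of melanin-concentrating hormone, rose by 3.805 ± 0.106 at 1 day, and its level at 3 days was again lower than at 1 day (-3.59 ± 0.11). PENK, the enkephalin precursor, rose by 2.08 ± 0.07 and TAC1, the substance P precursor, by 1.94 ± 0.09 at 1 day. NPY, the precursor of neuropeptide Y, was higher at all 3 times (1.51 ± 0.11, 1.33 ± 0.11 and 1.11 ± 0.11). NTS, the neurotensin precursor, lay at or below the lower quartile in uninjured and 1 day cord and was higher at 3 days than in both, by differences that are not exact. CARTPT was lower at 7 days (-1.70 ± 0.07).

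With ivermectin 12 of the 16 precursors were lower and 1 higher than without it, with PMCH at -3.53 ± 0.11, PENK at -3.22 ± 0.07 and TAC1 at -2.37 ± 0.09. Of all probe sets 25.4% were called lower and 29.6% higher in that comparison. Against uninjured cord 3 of 16 were lower with the drug, PENK (-1.14 ± 0.07), TAC1 (-0.43 ± 0.09) and GRP (-0.41 ± 0.07). Against the same cord 6.95% of all probe sets were called in either direction. GRP lay at or below the lower quartile with the drug, so its difference is not exact. Of the 16 precursors, 5 lay at or below the lower quartile of the uninjured arrays (NTS, PDYN, POMC, UCN3 and VIP).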
